A study of Danio rerio with 8 samples.

Results

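Wnt feedback target genes are genes that canonical Wnt signalling switches on and whose products then limit or shape the same signal. The 10 genes considered were axin2, nkd1, notum1a, dkk1b, apcdd1l, rnf43, znrf3, lef1, tcf7 and sp5a. They were chosen by name for their known place in the pathway, with earlier results of these data known. Of these, 9 had a row among the 32520 genes of the count table, and all 9 were among the 15559 genes with enough counts to be tested. No row carried the name rnf43, a ubiquitin ligase related to znrf3, and it was not analysed here.

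In canonical Wnt signalling a Wnt ligand binds a Frizzled receptor and an Lrp co-receptor, which stops a cytoplasmic complex built on Axin from marking beta-catenin for destruction. Beta-catenin then enters the nucleus, binds Lef and Tcf proteins and activates their targets. In zebrafish larvae the pathway acts in the vessels of the brain, in the cranial neural crest and its skeleton, and in fins, and heparan sulfate proteoglycans bind Wnt ligands at the cell surface.

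Expression was measured by RNA-seq of polyadenylated RNA in GFP-positive cells sorted from Tg(fli1a:eGFP)y1 larvae, also written Tg(fli1:EGFP)y1, 96 hours after fertilization. All larvae are labelled wild type in genotype and all were injected with a morpholino, an antisense oligomer. The 4 control libraries come from larvae given the standard control morpholino, and the other 4, called LOF-labelled, from larvae given a morpholino against exon-intron junction 10 of hpse2, which encodes heparanase 2. Libraries 1_1 and 1_2 of a group belong to its biological replicate 1, and 2_1 and 2_2 to its replicate 2. Each preparation pooled 60 to 80 larvae. The fli1a promoter drives GFP in vascular endothelium and also in neural crest derived cells of the pharyngeal arches. No label tells whether libraries of one biological replicate were separate pools. Their correlation in a random-effect fit was 0.504, so p-values measure the spread between these libraries, which may be technical, and can be too small. The 95% intervals of the ratios between groups rest on the same spread and can be too narrow.

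Total counts were between 5048839 (control 1_2) and 11344918 (control 2_2) per library. The main axis of variation, with 40.3% of the variance, split the libraries across the labels. On one side, called the first library set, were control replicate 1 and LOF-labelled replicate 2. Control replicate 2 and LOF-labelled replicate 1 formed the second set. Levels are given as CPM, the count relative to the TMM-scaled library size. The target hpse2 was at 20.6 to 33.1 CPM in controls but at 47.4 to 83.3 CPM in LOF-labelled libraries, so its counts give no check of the knockdown. The cells are labelled endothelium. The 12 endothelial markers summed to 693 to 991 CPM in controls and to 713 to 1011 CPM after the hpse2 morpholino, with none at 0. The highest of them was fli1a, whose promoter drives the GFP, at a mean of 482 CPM in controls and 475 CPM in LOF-labelled libraries. Over all 8 libraries 11 fibroblast markers summed to 34479 to 48130 CPM. These sums are not scaled by gene length. As these are bulk samples, fewer cells of a type and less RNA per cell cannot be told apart.

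Most of the feedback targets were well expressed in the sorted cells. Per gene length the highest was axin2, the scaffold of the destruction complex that Wnt signalling itself induces, at 39.7 ± 4.81 CPM per kilobase in the controls (mean ± SD, n = 4), above 87.6% of the genes tested. The cytoplasmic inhibitor nkd1 followed at 32.4 ± 3.62 CPM per kilobase in the controls. The secreted Wnt deacylase notum1a and the transcription factors lef1 and tcf7 were close to each other, at 24.1 ± 2.17, 23.2 ± 1.75 and 22.7 ± 2.89 CPM per kilobase. In this order each of these 5 genes overlapped the next in its range over the 8 libraries. The receptor ubiquitin ligase znrf3 was lower, at 9.81 ± 1.19 CPM per kilobase, and did not overlap tcf7. It overlapped the membrane inhibitor apcdd1l, at 8.01 ± 1.29 CPM per kilobase. Below a further gap stood the Wnt-induced transcription factor sp5a, at 3.03 ± 1.07 CPM per kilobase, and the secreted Lrp antagonist dkk1b, at 1.06 ± 0.907 CPM per kilobase, whose ranges overlapped. In the LOF-labelled libraries the order of the means was the same, from 45.5 ± 7.40 CPM per kilobase for axin2 to 1.55 ± 0.610 for dkk1b.

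**Figure D1:**
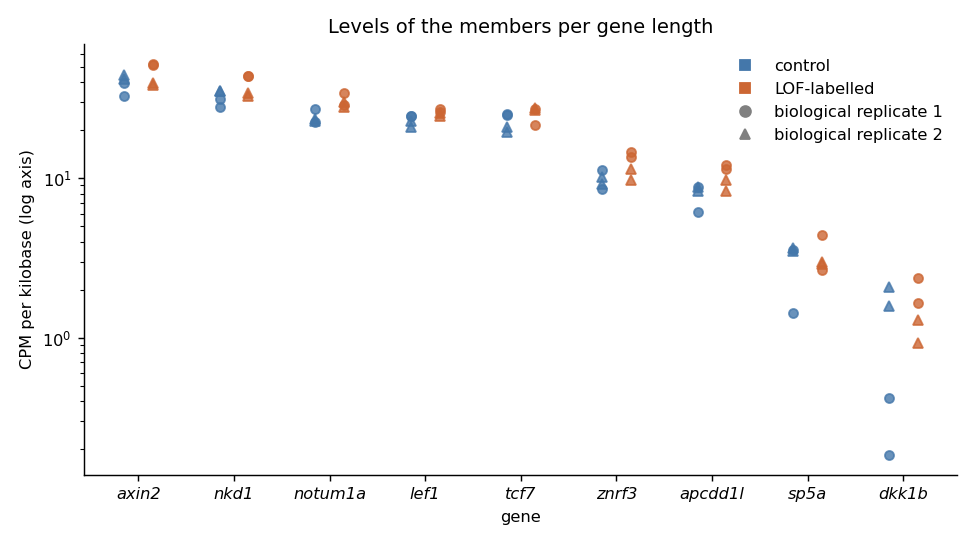
Level of each of the 9 members in CPM per kilobase of the deposited gene length, on a log axis, with 1 point per library (blue control, orange LOF-labelled; circles biological replicate 1, triangles replicate 2). The 5 genes on the left lie between 19.5 and 52.4 CPM per kilobase in all libraries, and dkk1b has its lowest points, 0.183 and 0.416, in the libraries of control replicate 1.

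The comparison of the groups asks whether expression of these targets differed when hpse2 was targeted. None of the 9 members was called at an adjusted p under 0.05 by edgeR, a rule that called 0.09% of all genes tested, and 0 were called by DESeq2, which called 0.378% of the genes it fitted. At an unadjusted p under 0.05 by edgeR, 3 members were higher, namely notum1a, apcdd1l and znrf3, against 2.96% of all genes tested. With DESeq2 3 members passed (2.03% of all genes, counting higher values) and with limma-voom 2 did (2.89%). With the biological replicate number as a block in edgeR 2 members passed (2.77%), and with the library number as a block 1 did (1.44%). With counts summed per biological replicate (2 against 2), or with biological replicate as a random effect, 0 members had an unadjusted p under 0.05, where 0.625% and 0.861% of all genes were higher. When control 1_2, control 2_1 or either library of LOF-labelled replicate 1 was left out, 1 member had an unadjusted p under 0.05, against 2.41% to 3.01% of all genes. Leaving out control 2_2 gave 2 (3.04% of all genes), and leaving out LOF-labelled 2_1 or 2_2 gave 4 (2.88% and 3.12% of all genes). The estimates lay between 0.07 and 0.47 on the log2 scale, with a median of 0.25, against a median of 0.0017 over all genes tested, of which 50.3% had a value above 0. Every member had a value above 0, although that of sp5a turned below 0 without control 1_2 and without LOF-labelled 1_2. The members share the 8 libraries and were chosen with these values known.

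**Figure D2:**
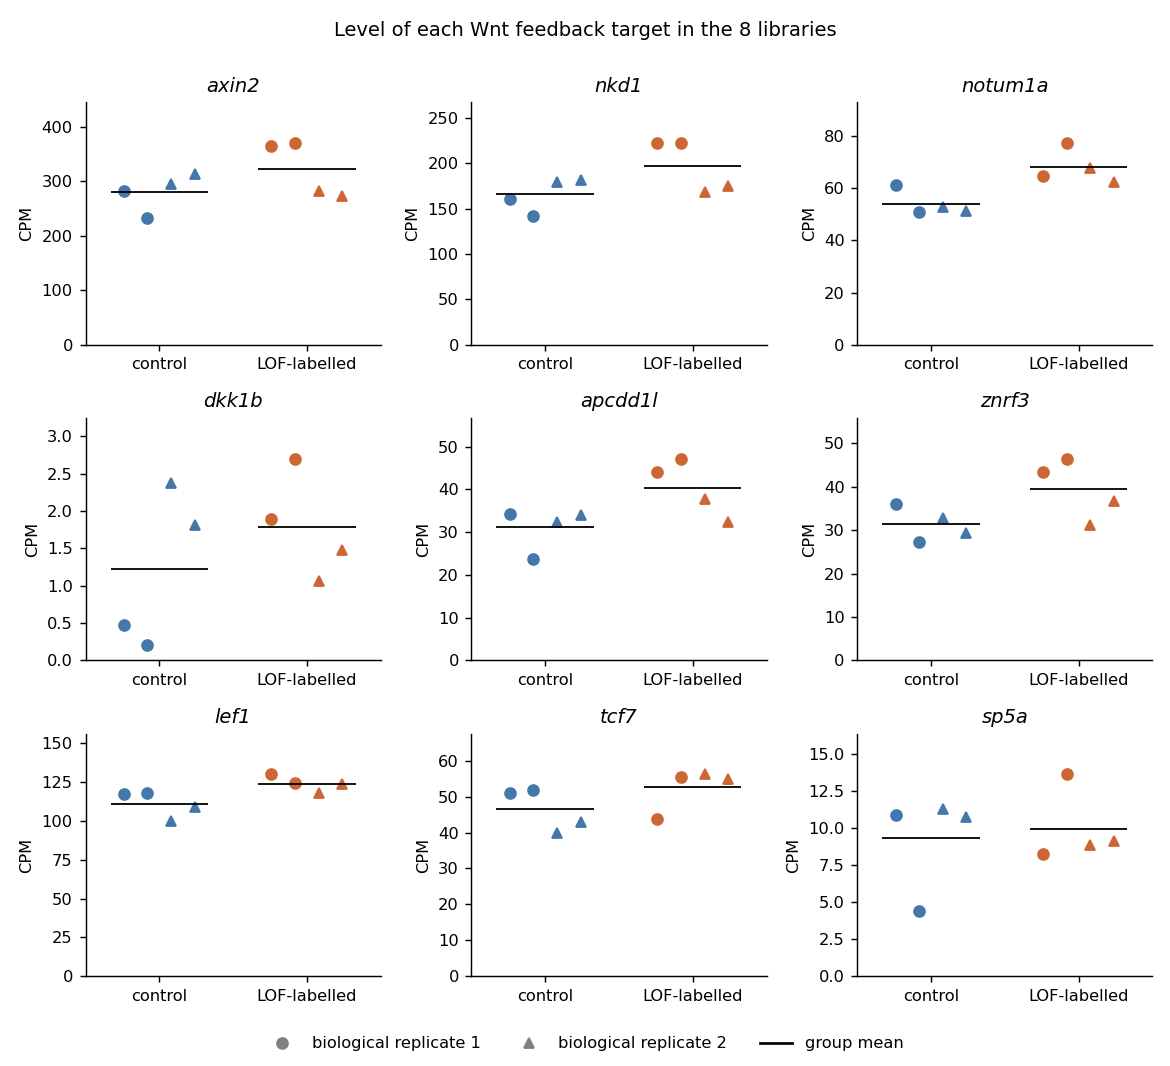
CPM of the 9 members in each library, with control libraries on the left and LOF-labelled libraries on the right of each panel; circles are biological replicate 1, triangles replicate 2, and lines group means (n = 4 libraries). The groups are apart only for notum1a, and the LOF-labelled circles lie above the triangles for axin2, nkd1, dkk1b, apcdd1l, znrf3 and lef1.

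Of the cytoplasmic inhibitors, axin2 (chromosome 3, 55627948 to 55650771, reverse strand, GRCz11, ENSDARG00000100149) had 281, 233, 295 and 313 CPM in controls 1_1, 1_2, 2_1 and 2_2. LOF-labelled libraries of the same numbers had 364, 371, 281 and 273 CPM. Both libraries of LOF-labelled replicate 1 were above every control, whereas both of replicate 2 were within the control range. The log2 fold change was 0.20 (SE 0.13, edgeR adjusted p = 0.877), a ratio of 1.15 with a 95% interval from 0.936 to 1.41. It was 0.12 on the log2 scale without control 1_2, and also 0.12 without LOF-labelled 1_2. The counts behind these values were 1111 to 3635 per library.

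The gene nkd1 (chromosome 7, 37582281 to 37622370, reverse strand, ENSDARG00000020053) encodes Naked cuticle 1, which binds Dishevelled and dampens the signal downstream of the receptor. It had 160, 142, 180 and 181 CPM in the 4 controls and 223, 223, 169 and 175 CPM in LOF-labelled libraries, in the same order. LOF-labelled replicate 1 was again above all controls and replicate 2 among them. Between the groups the log2 fold change was 0.25 (SE 0.13, edgeR adjusted p = 0.813), a ratio of 1.19 (95% interval 0.981 to 1.44).

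Among the secreted and membrane inhibitors, notum1a (chromosome 3, 57948377 to 57979190, forward strand, ENSDARG00000031126) encodes an enzyme that removes the lipid from Wnt ligands outside the cell. It lies 2297605 bases beyond axin2 on the same chromosome. Its level was 61.2, 50.8, 52.7 and 51.3 CPM in controls and 64.9, 77.5, 67.7 and 62.4 CPM in LOF-labelled libraries. It was the only member for which no control reached the lowest of the 4 LOF-labelled libraries, which was so for 2.03% of the genes tested, and the nearest libraries of the groups, control 1_1 and LOF-labelled 2_2, were close. The log2 fold change was 0.33 (SE 0.11, edgeR adjusted p = 0.543), a ratio of 1.26 (95% interval 1.07 to 1.48). This was the smallest p among the members and the 250th of all genes tested.

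The gene apcdd1l (chromosome 6, 49650170 to 49673476, reverse strand, ENSDARG00000075557) is related to APCDD1, a membrane glycoprotein that in humans and mice binds Wnt and Lrp5 and blocks signalling. Its level was 34.3, 23.7, 32.4 and 34.0 CPM in controls and 44.1, 47.2, 37.6 and 32.3 CPM in LOF-labelled libraries. The low value of control 1_2 and the high values of LOF-labelled 1_1 and 1_2 set the groups apart in the mean, while LOF-labelled 2_2 was below 3 of the controls. Between the groups the log2 fold change was 0.37 (SE 0.15, edgeR adjusted p = 0.755), a ratio of 1.29 (95% interval 1.02 to 1.63). A short protein-coding gene, BX323459.2, overlaps it on the same strand and held 7 counts over all libraries, against 2381 for apcdd1l.

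The gene dkk1b (chromosome 12, 6465557 to 6467675, forward strand, ENSDARG00000045219) encodes Dickkopf 1b, which binds Lrp5 and Lrp6 and keeps them from the receptor complex. It was near the limit of detection, with 4, 1, 19 and 21 counts in the controls and 15, 26, 8 and 11 counts in the LOF-labelled libraries. The controls differed among themselves more than the groups did. Control replicate 2 held 40 counts and control replicate 1 held 5, a ratio of 5.76 per total count (95% exact interval 2.27 to 18.7, counting error only). LOF-labelled replicate 1 held 41 counts and replicate 2 held 19, a ratio of 1.88 (95% exact interval 1.07 to 3.43, counting error only). The group difference of 0.47 on the log2 scale (SE 0.57, edgeR adjusted p = 0.953) had a 95% interval of the ratio from 0.583 to 3.30, which spans both directions. That difference was 0.21 without either library of control replicate 1, 0.19 without LOF-labelled 1_2, 0.92 without control 2_1, 0.71 without control 2_2 and 0.79 with limma-voom. An antisense gene overlaps dkk1b and held 0 counts.

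The receptor ubiquitin ligase znrf3 (chromosome 5, 15992655 to 16126906, forward strand, ENSDARG00000062573) removes Frizzled receptors from the cell surface. It had 36.0, 27.3, 32.7 and 29.4 CPM in controls and 43.5, 46.5, 31.3 and 36.6 CPM in LOF-labelled libraries. LOF-labelled 1_1 and 1_2 were the highest of the 8, LOF-labelled 2_2 was just above the highest control, and LOF-labelled 2_1 was within the control range. The log2 fold change was 0.33 (SE 0.14, edgeR adjusted p = 0.768), a ratio of 1.26 (95% interval 1.01 to 1.57).

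The nuclear factor lef1 (chromosome 1, 49814461 to 49905357, forward strand, ENSDARG00000031894) binds DNA with beta-catenin and is also a target of the pathway. Its level was 117, 118, 99.97 and 109 CPM in controls and 130, 124, 118 and 123 CPM in LOF-labelled libraries. It had the narrowest spread of the members, and only LOF-labelled 2_1, at 117.5 CPM, was below the highest control, at 117.9 CPM. Between the groups the log2 fold change was 0.16 (SE 0.088, edgeR adjusted p = 0.821), a ratio of 1.12 (95% interval 0.977 to 1.28).

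The second Lef and Tcf factor, tcf7 (chromosome 21, 45267589 to 45337118, forward strand, ENSDARG00000038672), had 50.9, 51.9, 39.8 and 43.0 CPM in the controls. In the LOF-labelled libraries it had 43.9, 55.5, 56.2 and 54.8 CPM. Here LOF-labelled 1_1 was the low library and the other three were above all controls. The log2 fold change was 0.18 (SE 0.12, edgeR adjusted p = 0.879), a ratio of 1.13 (95% interval 0.940 to 1.37). Without control 2_1 it was 0.11 on the log2 scale.

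The transcription factor sp5a (chromosome 9, 3666401 to 3671911, reverse strand, ENSDARG00000076571) is a direct Wnt target of the Sp family. It had 10.9, 4.41, 11.3 and 10.8 CPM in controls and 8.22, 13.6, 8.88 and 9.15 CPM in LOF-labelled libraries. Apart from the low control 1_2 and the high LOF-labelled 1_2, the controls were the higher ones. The log2 fold change of 0.074 (SE 0.28, edgeR adjusted p = 0.987) turned to -0.13 without control 1_2 and to -0.12 without LOF-labelled 1_2, so no direction can be given for sp5a.

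**Figure D3:**
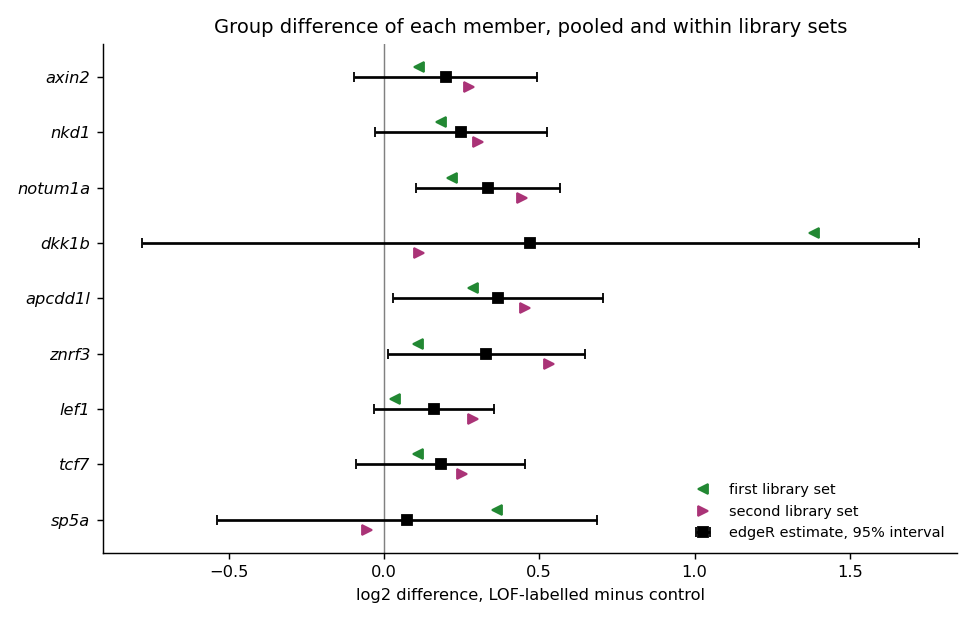
Difference of LOF-labelled minus control libraries for each member on the log2 scale; squares are edgeR estimates with 95% intervals from all 8 libraries, and triangles are differences of mean log2 CPM within the first (green) and second (purple) library set. The intervals of notum1a, apcdd1l and znrf3 lie above 0, and dkk1b and sp5a have the widest. These intervals treat the libraries of a group as independent and can be too narrow. With counts summed per biological replicate, 0 members had an unadjusted p under 0.05 by edgeR.

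For most members the excess of the LOF-labelled libraries over the controls was larger in biological replicate 1. LOF-labelled replicate 1 was in the second library set and control replicate 1 in the first. Replicate and library set therefore cannot be told apart in this contrast. The gap between the replicates and the difference between the sets given below are the same quantity, so neither adds to the other. LOF-labelled 1_2 was above all 4 controls for 9 of 9 members and LOF-labelled 1_1 for 6, against 24.6% and 22.4% of all genes tested. LOF-labelled 2_1 and 2_2 were above all controls for 3 and 4 members, against 19.6% and 18.5% of all genes tested. When libraries of the same biological replicate number were set against each other, the members' median difference was 0.52 on the log2 scale in replicate 1 and 0.069 in replicate 2. In replicate 1, 8 members were higher in the LOF-labelled libraries (51% of all genes tested were), and tcf7 was at -0.059. In replicate 2, 5 were higher (49.2% of all genes tested were), while axin2 was at -0.13, nkd1 at -0.073, sp5a at -0.28 and dkk1b at -0.63. The replicate numbers do not pair the libraries by any label, and the deviations of same-numbered replicates from their group means had a correlation of -0.49 across genes, which are not independent replicates.

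Within the library sets, 7 members had the larger difference in the second set, and dkk1b and sp5a in the first. The median difference of the 9 members was 0.18 on the log2 scale within the first set and 0.29 within the second, and 8 members were above 0 in both sets, against 28.7% of all genes tested. The exception was sp5a, at 0.36 within the first set and -0.056 within the second. Both LOF-labelled libraries were above both controls for 4 members in the first set, against 22.7% of genes tested, and for 7 in the second, against 21% of genes tested. The 3 members of which this was so in both sets were nkd1, notum1a and tcf7, against 6.32% of genes tested. Both sets draw on the 8 libraries compared above and were defined from all genes after the data were seen.

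With the library sets as a block, also chosen after the data were seen, edgeR called 2.55% of all genes and 0 members. The members nearest to the threshold were nkd1 (0.24, adjusted p = 0.0527) and notum1a (0.33, adjusted p = 0.0559). In that fit 6 members had an unadjusted p under 0.05, against 7.56% of all genes tested that were higher. Its residual spread is largely that of libraries sharing a biological replicate, so these p-values can be too small. For 5 members (axin2, nkd1, dkk1b, tcf7 and sp5a) the difference between the sets was larger than that between the groups. The share of all genes tested for which this was so was not counted. In axin2 the second set was 0.33 higher on the log2 scale, against a group difference of 0.19 averaged over the sets.

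Among themselves the members fell into different profiles over the 8 libraries. The levels of axin2, nkd1, apcdd1l, znrf3, dkk1b and sp5a were higher in the second set, by 0.20 (znrf3) to 1.38 (dkk1b) on the log2 scale. Those of tcf7 and lef1 were lower in the second set, at -0.24 and -0.047, and notum1a, at 0.012, was level between the sets. The libraries of the sets did not overlap for axin2, nkd1 and dkk1b, but did for apcdd1l, znrf3 and sp5a. The sets were defined by the main axis over all genes, and the share of all genes tested whose sets did not overlap was not counted. Summed endothelial markers were also higher in the second set, with 937 to 1011 CPM, against 693 to 740 CPM in the first. The 5 erythrocyte markers, of which alas2 was at 0, ran the other way, with 346 to 387 CPM in the second set and 959 to 1343 CPM in the first. In 7 members the highest library was LOF-labelled 1_2, and in 7 the lowest was control 1_2, the shallowest library. Both libraries also lay at opposite ends of the main axis of variation over all genes. The share of all genes tested with the same highest or lowest library was not counted. Summed fibroblast markers (11 of 11 with a log2 fold change above 0) were at 34479 to 40404 CPM in the controls, and at 45367 and 48130 CPM in LOF-labelled 1_1 and 1_2, against 39177 and 39434 CPM in 2_1 and 2_2. Summed mural cell markers, of pericytes and smooth muscle (6 of 6 above 0 on the same scale), were at 631 to 897 CPM in the controls, at 906 and 1041 CPM in LOF-labelled 1_1 and 1_2 and at 777 and 771 CPM in 2_1 and 2_2. No fibroblast or mural marker was at 0, and 50.3% of all genes tested had a log2 fold change above 0. Osteoblast markers, 5 genes of which bglap was at 0, summed to 127 to 137 CPM in controls, to 160 and 159 CPM in LOF-labelled 1_1 and 1_2 and to 118 and 114 CPM in 2_1 and 2_2. Muscle markers, 5 genes of which mylpfa was at 0, summed to 710, 959, 343 and 202 CPM in controls 1_1, 1_2, 2_1 and 2_2. In LOF-labelled libraries of the same numbers they summed to 274, 1825, 56.1 and 47.9 CPM. The highest sum was thus in LOF-labelled 1_2, and the next highest in control 1_2, the lowest library for 7 members. The part of these cells in the members' levels was not tested. The sums of 9 cartilage and neural crest markers moved the other way, from 15826 to 20834 CPM in the controls to 9275 to 12386 CPM in LOF-labelled libraries, with snorc at 0 throughout. Other lists, of 15 in all, shifted as well. Neuron markers summed to 271.2 to 359.4 CPM in controls and 246.3 to 270.6 CPM in LOF-labelled libraries. Liver markers summed to 13.5 to 18.9 and 21.1 to 24.2 CPM. Photoreceptor and lens markers summed to 241 to 777 CPM in the first set and 79.6 to 124 CPM in the second. Their part in the members' levels was not tested either.

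**Figure D4:**
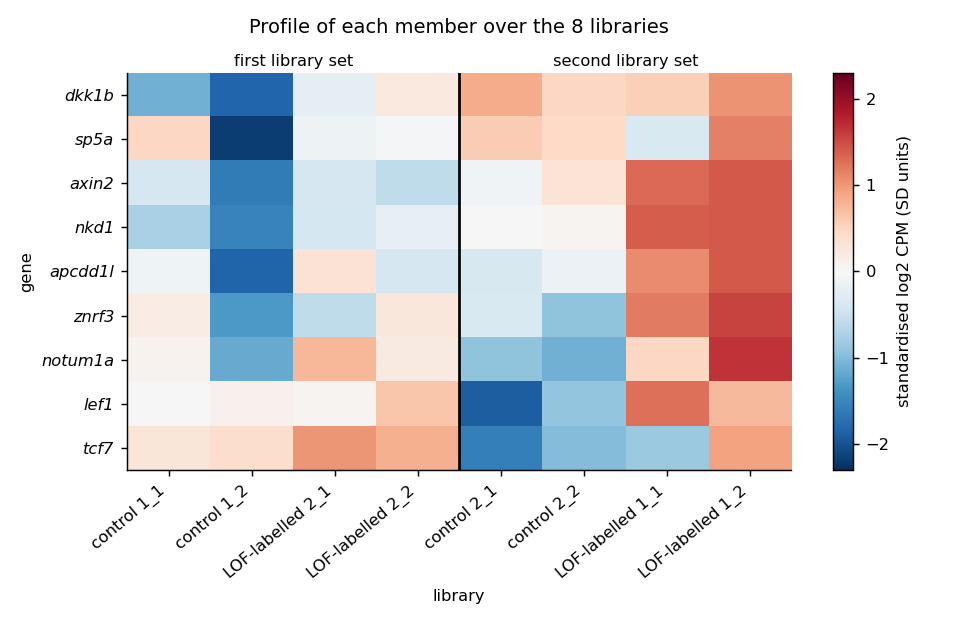
Log2 CPM of each member, standardised to mean 0 and SD 1 over the 8 libraries (colour, red high and blue low), with libraries ordered by library set. LOF-labelled 1_2 is red in all rows, control 1_2 is blue in the upper 7 rows, and lef1 and tcf7 are blue in control 2_1 and 2_2.

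The genes whose standardised profile over the 8 libraries was nearest to that of axin2, of 13600 candidates, were thbs3a, a thrombospondin of the matrix, ism1, a secreted protein, and cyfip1, a regulator of actin. Their root mean square differences from axin2 were 0.115, 0.120 and 0.126 SD units, against a median of 1.31 over the candidates. The nearest member was nkd1, at 0.216, with 0.193% of the genes tested nearer, followed by apcdd1l at 0.359, and the farthest was tcf7 at 1.47. These profiles share the library sets described above, and none of the 3 nearest genes was called, with log2 fold changes of 0.21, 0.25 and 0.12 (edgeR adjusted p = 0.895, 0.835 and 0.916).

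Other genes of the pathway, in 7 lists of 144 genes, were compared in the same fit. Of these, 105 were tested, 0 were called, and 73 had a value above 0 and 32 below, with a median of 0.091 on the log2 scale. The smallest edgeR adjusted p among them was 0.588. Of all genes tested 50.3% had a value above 0, with a median of 0.0017. The genes of the lists share their libraries with the members and with each other. As for the members, no single gene passed, and the values were mostly small.

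Paralogs of the members had values above 0 in 12 of 12 tested, against 50.3% of all genes tested, with a median of 0.15 and 0 called. The 2 of smallest p were the secreted antagonist dkk2, at 34.3 ± 3.70 CPM in controls and 46.4 ± 8.76 CPM in LOF-labelled libraries (mean ± SD, n = 4; log2 fold change 0.44, SE 0.15), and axin1, the constitutive scaffold, at 0.15 (SE 0.088). The other dkk1 gene, dkk1a, was at 25.5 ± 9.31 CPM in controls and 26.6 ± 11.1 CPM in LOF-labelled libraries, and the other notum1 gene, notum1b, at 21.3 ± 3.02 and 23.1 ± 3.54 CPM. Both copies were detected beside their partners, and neither was called.

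Of 26 tested genes of the transduction core, from co-receptors to nuclear partners, 19 were above 0 and 7 below, with a median of 0.056. The co-receptor lrp5 had 172 ± 16.6 CPM in controls and 203 ± 11.9 CPM in LOF-labelled libraries (log2 fold change 0.23, SE 0.096, edgeR adjusted p = 0.749), and bcl9, which links beta-catenin to Pygopus, was at 0.16 (SE 0.089). Beta-catenin itself, ctnnb1, was at 1610 ± 77.5 and 1624 ± 239 CPM. These values differed by less than the spread between libraries of a group for ctnnb1.

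Among 7 tested genes for R-spondins, their Lgr receptors and Wnt secretion, 5 were above 0, with a median of 0.087, and those of smallest p were rspo3, an enhancer of Wnt signalling, at 0.11 and the receptor lgr4 at -0.075. Of 26 Wnt ligands and Frizzled receptors, 18 were above 0, with a median of 0.15. The ligand wnt9a, at 5.32 ± 0.338 CPM in controls and 7.77 ± 1.64 CPM in LOF-labelled libraries, was at 0.54 (SE 0.20, edgeR adjusted p = 0.673), and wnt10b at 0.62 (SE 0.26). For 3 of the 26, wnt5b, wnt9a and wnt10a, all LOF-labelled libraries were above all controls, which was so for 2.03% of the genes tested.

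Of 8 Wnt antagonists tested, all secreted except the co-receptor kremen1, 7 were above 0 and 1 below, with a median of 0.13. The one below 0 was frzb, a Frizzled-related antagonist known from cartilage, at 156 ± 9.34 CPM in controls and 128 ± 16.3 CPM in LOF-labelled libraries (log2 fold change -0.29, SE 0.11, edgeR adjusted p = 0.663), and the Dickkopf co-receptor kremen1 was at 0.29 (SE 0.12). The cartilage marker sums given above were lower in the same libraries, and their part in the value of frzb was not tested.

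Other direct Wnt targets were split, with 8 of 14 above 0 and a median of 0.046. The receptor gene tnfrsf19 was at 0.29 (SE 0.17) and bambib, a decoy receptor for BMP signals, at 0.18 (SE 0.12). The cell cycle target ccnd1 was at 397 ± 13.1 CPM in controls and 416 ± 9.89 CPM in LOF-labelled libraries (0.068). Only for ccnd1 of these 14 were all 4 LOF-labelled libraries above all 4 controls, which was so for 2.03% of the genes tested. The 6 genes below 0 were myca, mycb, fosl1a, sox9b, prickle1b and id2a. Genes linked to Wnt in brain endothelium were also split, with 7 of 15 above 0 and a median of -0.084. That list holds receptor genes such as lrp5 and fzd4 as well, so its split is not that of Wnt targets alone. The direction in which Wnt acts on each gene was not taken into account. Apart from plvapb and cldn5b, the genes above 0 were adgra2, reck, ndp, lrp5 and fzd4, which encode ligand or receptor components. Those below 0 were mfsd2aa, cldn5a, abcb4, slc16a1a, sox18, plvapa, mmp25b and the receptor component tspan12. Too low to be tested were slc2a1a, sox17 and fgfbp1b. Their means were 0.457, 0.358 and 0.885 CPM in controls and 0.497, 0.353 and 1.495 CPM in LOF-labelled libraries. For fgfbp1b all 4 LOF-labelled libraries were above all 4 controls, as for 2.03% of the genes tested. The membrane metalloproteinase mmp25b was at 30.2 ± 9.04 CPM in controls and 19.9 ± 2.96 CPM in LOF-labelled libraries (-0.59, SE 0.20, edgeR adjusted p = 0.588), and the claudins cldn5a and cldn5b of the blood-brain barrier were at -0.17 and 0.016. None of these genes was called.

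**Figure D5:**
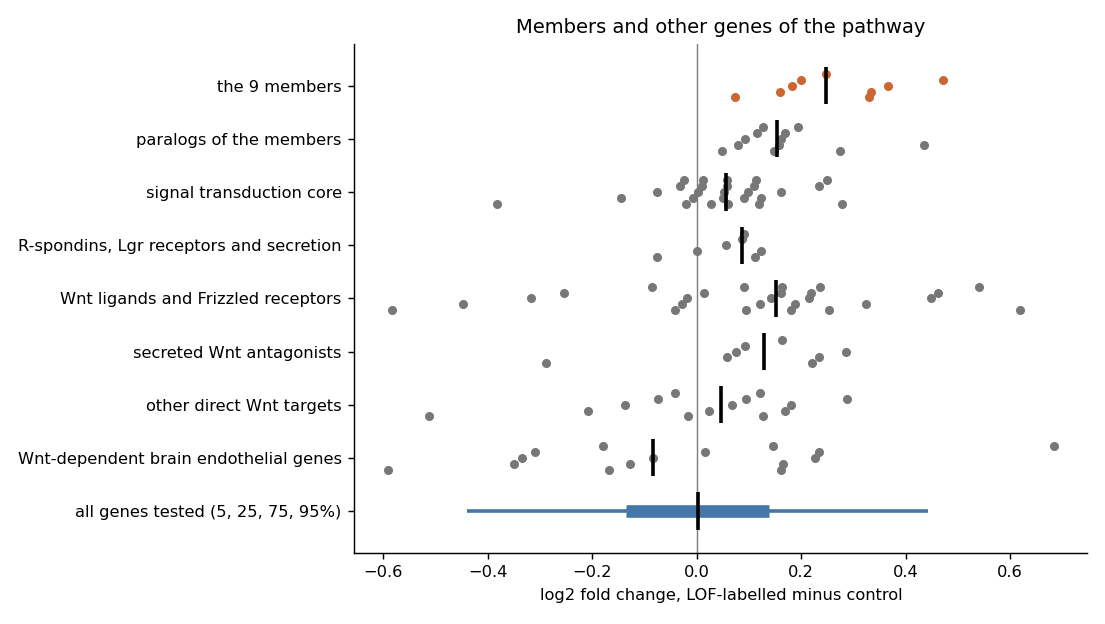
Log2 fold change of the 9 members (orange) and of the tested genes of 7 other pathway lists (grey), 1 point per gene with black bars for medians, above all genes tested (thick bar 25th to 75th and thin bar 5th to 95th percentile). The median of the members is 0.25, that of the brain endothelial list -0.084, and the 5th and 95th percentiles of all genes are -0.44 and 0.44.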

How the data were processed

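RNA-seq libraries of sorted GFP-positive cells were analysed from raw read counts per gene, which the authors deposited as 1 table of 32520 genes with names, coordinates and gene lengths. Per the submitters' processing notes, the genome build was GRCz11. How reads were aligned, counted and assigned to strands is not given in the sources used here. Columns were assigned through the sample descriptions, with 0 left unassigned. The member genes, gene lists and tests were chosen with earlier results of these data known.

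Genes with low counts were removed with filterByExpr, and 15559 remained. After TMM scaling, edgeR 4.0.16 (R 4.3.3) tested LOF-labelled against control libraries by quasi-likelihood, with robust dispersions, no replicate block and Benjamini-Hochberg adjustment over all genes tested. Genes with an adjusted p under 0.05 were called. Fold changes are log2 values of LOF-labelled minus control libraries, each SE was taken from the F statistic, and log2 CPM carries a prior count of 2. The deposited gene length, an annotation value without error, served to give CPM per kilobase. The scripts were tested on simulated counts.

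Named genes are the 9 members, the 2 genes of smallest p in each of 7 pathway lists, and the 3 genes of mean log2 CPM of at least 1 whose profile was nearest to that of axin2, along with hpse2. Other named genes were chosen after their values were seen. Alternatives were DESeq2 1.42.0, limma-voom (limma 3.58.1), other scalings and filters, replicate blocks, sums per biological replicate, a random effect and omission of each library. A block for the library sets was added after the data were seen.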

Additional observations from a re-analysis of the deposited data

Results flagged for a closer look

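In 2 of 18 groups of 4 libraries (9 members in each group), 1 library stood apart from the other 3 by more than Dixon's 95% critical value. Chance flags about 1 in 20 such groups. The level of tcf7 in LOF-labelled 1_1 was 43.9 CPM, against 54.8 to 56.2 CPM in the other LOF-labelled libraries. The level of sp5a in control 1_2 was 4.41 CPM, with the remaining controls at 10.8 to 11.3 CPM.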

How the results depend on the processing

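No member was called under any of the 19 alternatives. Only sp5a changed direction, at -0.13 without control 1_2, -0.12 without LOF-labelled 1_2 and up to 0.17 when another library was left out. All other values of the members kept their direction but moved in size when 1 library was left out. On the log2 scale apcdd1l then ranged from 0.26 to 0.47, znrf3 from 0.24 to 0.43 and notum1a from 0.26 to 0.41. The range was 0.12 to 0.28 for axin2, 0.18 to 0.32 for nkd1 and 0.11 to 0.19 for lef1. It was 0.11 to 0.26 for tcf7 and 0.19 to 0.92 for dkk1b. The number of genes called among all genes was 14, with 32 without a low-count filter, 95 with DESeq2, 0 with the library number as a replicate block, 0 with counts summed per biological replicate, 5 with a random effect and 396 with the crossed replicate block, which was chosen after the data were seen. Leaving out 1 library gave 0 to 20 calls, with 0 for control 1_1 and for each library of LOF-labelled replicate 2, 5 for control 1_2, 8 for control 2_1, 6 for control 2_2 and 3 for LOF-labelled 1_1. At an unadjusted p under 0.05 edgeR had 524 genes with the library number as a block and 299 with summed counts, and 854 to 970 where leaving out 1 library gave no call. The biological replicate number as a replicate block gave 17, and no block gave a call among the members. The cause of these differences was not tested. Same-numbered libraries had correlations of -0.34 to -0.23, so the numbers were not taken as pairs. Members with non-overlapping groups numbered 1, where 2.03% of all genes tested had all LOF-labelled libraries above all controls. Within the first library set they numbered 4 (22.7% of all genes) and within the second 7 (21% of all genes). They numbered 2 on library totals and 1 to 3 when 1 library was left out. For these settings the share of all genes was not counted, and groups of fewer libraries overlap less easily. Depth limits dkk1b most, with 1 to 26 counts per library.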
